A study of Oryza sativa Japonica Group and Oryza sativa Indica Group and Oryza sativa Indica Group x Oryza sativa Japonica Group with 9 samples.

Results

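A block of chromosome 4 was followed in rice shoots, locus by locus, from LOC_Os04g11195 to LOC_Os04g14304, in the japonica cultivar C92, the indica cultivar MH63 and the F1 hybrid of C92 and MH63. It holds 286 of the 55783 loci in the files, taken in ID order. The block was chosen by the difference between the parents: its 50 loci with enough expression to be tested form a window in which many loci were called at 2-fold or more between C92 and MH63. That difference is therefore given here as a description, with no test. The difference of the hybrid from the mid-parent was not used in that choice and is tested, although the F1 libraries took part in the filter for tested loci and in the shared fit. The parents' libraries, which chose the block, also enter the mid-parent, so this test is not independent of the choice. Polyadenylated RNA of whole shoots was sequenced from seedlings 14 days old, raised in water at 28 °C under days of 16 h light (100 µmol m-2 s-1) and 8 h dark, in 3 libraries for each of the 3 groups. No treatment or transgene was applied in any group, and the labels put the 2 parents in the japonica and indica groups of cultivated rice and the hybrid in a cross of both. The labels call the replicates biological but do not say how plants were divided, so a p-value speaks for the spread among these libraries, which may be technical.

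Japonica and indica rice are long-separated subspecies whose genomes differ in gene content as well as in sequence, and stretches of a chromosome can carry very different haplotypes in each. A gene missing or silent in a parent gives no transcript there. In a hybrid, each parental copy sits in the same nucleus with the same regulators. Where a copy keeps its parental activity, the hybrid lies midway between the parents; where the regulators act on both copies alike, it need not. IDs of this form were given out in order along each chromosome, so neighbours in ID order are neighbours on the chromosome, and the annotation behind them includes models of transposon origin, which the files do not mark. The files pair no locus with a gene name, and the RefSeq gene table matched 0 of the 286 members. No name, function, coordinate or sequence is therefore given for them, and shoot identity was not checked by marker genes.

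Values are FPKM, the fragments of a locus scaled to its length and to the size of the library, and compare levels between loci per length. Depth, read from the low values, lay between 0.956 (MH63 library 1) and 1.25 (F1 library 2) times that of C92 library 1. F1 libraries 1 and 3 were at 1.01 and 1.18. Between 30440 (MH63 library 1) and 33329 (F1 library 3) loci were above 0. What depth adds to the number of loci detected was not tested. Correlations of log2(FPKM + 1) across tested loci, which are not independent, were 0.977 to 0.99 within groups and 0.868 to 0.887 between the parents. F1 libraries 1 and 2 lie nearer C92 over the whole series than library 3 does, so F1 values are given by library. Total read numbers are unknown here, and a value of 0 is given as listed at 0. Polyadenylated RNA of a whole shoot does not separate fewer cells expressing a gene from less RNA in each. The genome used for alignment is not given either; a parent whose reads match it less well would show the same low values as a parent with less RNA, and these cannot be told apart.

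The block was thinly expressed. Of its 286 loci, 81 (28.3%) were listed at 0 in all 9 libraries, 155 were above 0 somewhere but too low to be tested, and 50 (17.5%) were tested, the condition being that 3 or more libraries reach 1 FPKM. Over all loci, 20.5% were at 0 in every library and 38.4% were tested. The flanks resembled the block in this: of the 300 loci to the left, from LOC_Os04g07560 to LOC_Os04g11180, 29% were at 0 and 15.3% tested, and of the 300 to the right, from LOC_Os04g14320 to LOC_Os04g17700, 25.3% and 24.3%. Members above 0 numbered 108 to 117 in the C92 libraries, 89 to 111 in MH63 and 125 to 129 in F1. The longest gap without a tested member, 60 loci, lay between LOC_Os04g13470 and LOC_Os04g14110. Summed FPKM over the block was 560 ± 40.7 in C92, 500.4 ± 15.6 in MH63 and 463 ± 10.4 in F1 (SD, n = 3), or 0.0914%, 0.0812% and 0.0757% of the library sum. A few abundant members weigh heavily in these sums. C92, MH63 and F1 averaged 104, 73.5 and 73.1 FPKM at LOC_Os04g12920, and 68.3, 85.9 and 63.0 at LOC_Os04g11400. At LOC_Os04g14150 they averaged 75.9, 56.0 and 44.1. The F1 sum stood below that of both parents, while more loci were detected there. Neither feature was confined to the block: in the left flank the sum was 456 ± 7.51 in F1, 500.3 ± 3.27 in C92 and 515 ± 16.5 in MH63, and over the whole series 32611 to 33329 loci were above 0 in F1 and at most 32198 in any parental library. The right flank did not share the low F1 sum: F1, at 2708 ± 368, lay between C92 at 2523 ± 111 and MH63 at 2913 ± 192.

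The 3 members with the most RNA per length differed by less than 2-fold between the parents, and LOC_Os04g12920 (1.39-fold) and LOC_Os04g14150 (1.35-fold), both higher in C92, were among the members called between them. LOC_Os04g12920 was the most abundant, with 77.26, 111.62 and 123.44 FPKM in C92 libraries 1, 2 and 3, 76.16, 71.23 and 73 in MH63, and 71.1, 66.0 and 82.3 in F1. Every C92 library was above every MH63 library, by little at the lowest, and C92 and F1 overlapped. LOC_Os04g11400 had 62.5, 61.0 and 81.3 FPKM in C92, 92.3, 81.5 and 83.9 in MH63, and 51.2, 75.4 and 62.3 in F1. Every MH63 library stood above every C92 and F1 library, by little at the lowest (81.52 against 81.3 in C92 library 3), but the locus was called in none of the comparisons. LOC_Os04g11880 was the steadiest of the abundant members, with 25.2, 24.4 and 26.3 FPKM in C92, 25.1, 25.4 and 22.8 in MH63, and 23.97, 27.14 and 24.72 in F1. LOC_Os04g11390, with means of 24.2 ± 0.849 FPKM for C92, 24.9 ± 1.81 for MH63 and 19.6 ± 2.86 for F1, and LOC_Os04g12499, at 16.4 ± 2.14, 17.3 ± 1.92 and 15.8 ± 1.86 (SD, n = 3), were likewise called in no comparison. In all, 13 of the 50 tested members were called in none of the 4 comparisons (C92 with MH63, and F1 with C92, with MH63 and with the mid-parent), as were 55.9% of all tested loci, a call being an adjusted p below 0.05 in a limma fit over all 21447 tested loci.

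**Figure D1:**
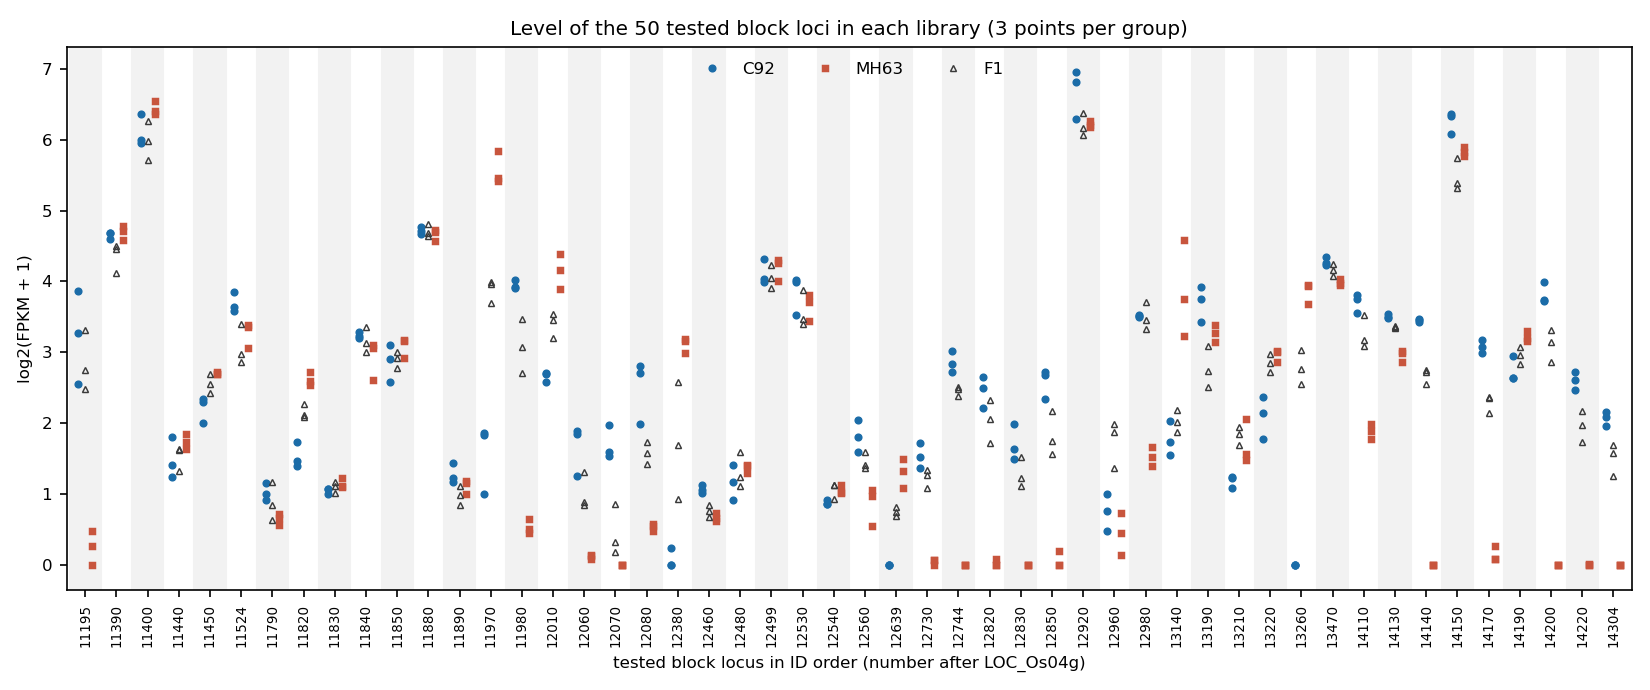
Level of each of the 50 tested members as log2(FPKM + 1) on the vertical axis, in ID order on the horizontal axis, with 3 points each for C92 (filled circles), MH63 (filled squares) and F1 (open triangles). Loci such as LOC_Os04g11880 hold all 9 libraries together, while LOC_Os04g14200 or LOC_Os04g13260 lie at 0 in one parent with F1 between.

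Between the parents, the values that chose the block were these. Of the 50 tested members, 34 were called, 23 higher and 11 lower in C92, where the background over all tested loci was 34.1% called, 19.2% higher and 14.9% lower in C92. At 2-fold or more on the log2(FPKM + 1) scale, 24 were called (48%), 17 higher in C92 and 7 higher in MH63, beside a background of 10.9%, made up of 6.46% higher and 4.41% lower in C92. The parents' libraries did not overlap at any of the 24, nor at 99.7% of the 2331 loci of the series at 2-fold. Nothing is read from these shares, since they are what singled the block out. Of the 50 tested members, 18 had no MH63 library at 1 FPKM and 4 had no C92 library at 1, so these could pass the filter only through the other groups. Over all 21447 tested loci the numbers were 1165 and 746. They were 8 and 3 of 46 in the left flank and 10 and 0 of 73 in the right. What the filter adds to the shares was not tested.

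Members higher in C92 ranged from those listed at 0 in every MH63 library to those with a modest excess. LOC_Os04g14200 had 12.2, 14.9 and 12.3 FPKM in C92 and was listed at 0 in every MH63 library, with 6.28, 8.96 and 7.83 in F1. LOC_Os04g14140 had 9.72, 10.01 and 10.04 FPKM in C92, 0 in all of MH63, and 5.62, 5.76 and 4.86 in F1. In both, the hybrid lay clear of each parent. LOC_Os04g11980 was at 14.1, 15.2 and 14.1 FPKM in C92 and at 0.42, 0.37 and 0.56 in MH63, a log2 difference of 3.42, with 10.03, 7.43 and 5.55 in F1. LOC_Os04g14170 averaged 7.44 ± 0.522 FPKM over the C92 libraries, 0.107 ± 0.0808 over those of MH63 and 3.90 ± 0.421 over those of F1 (SD, n = 3); its log2 difference was 2.93. LOC_Os04g11195, the first locus of the block, was uneven within C92, at 13.6, 4.87 and 8.67 FPKM, against 0, 0.2 and 0.4 in MH63 and 8.92, 5.72 and 4.59 in F1. Its F1 libraries overlapped those of C92.

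Members higher in MH63 at 2-fold or more were fewer, and each stood singly among the tested members at that limit. Below 2-fold, LOC_Os04g13210 and LOC_Os04g13220, the tested neighbours of LOC_Os04g13260, were also called higher in MH63. LOC_Os04g11970 had the largest log2 difference of these, -4.00 (C92 minus MH63): 1.01, 2.56 and 2.64 FPKM in C92, 42.9, 41.7 and 56.3 in MH63, and 14.54, 11.99 and 14.96 in F1. LOC_Os04g13260 was listed at 0 in every C92 library and had 14.5, 14.2 and 11.8 FPKM in MH63 and 5.78, 4.85 and 7.19 in F1. The groups were apart at both loci, with F1 in the lower part of the range between the parents. LOC_Os04g12380 was at 0, 0.18 and 0 FPKM in C92 and at 7.90, 6.91 and 8.08 in MH63, while its F1 libraries scattered from 0.91 to 5 FPKM. LOC_Os04g12010 had means of 5.32 ± 0.297 FPKM for C92, 16.9 ± 3.06 for MH63 and 9.60 ± 1.22 for F1 (SD, n = 3). LOC_Os04g13140 varied most within MH63, at 22.9, 12.5 and 8.34 FPKM, against 2.32, 3.10 and 1.92 in C92 and 3.54, 3.04 and 2.66 in F1. There F1 overlapped C92 and lay wholly below MH63.

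Along the block the divergent members were not evenly placed. Over the 72 loci from LOC_Os04g11195 to LOC_Os04g11962, 13 were tested and 2 differed by 2-fold, 1 in each direction, with a median absolute log2 difference of 0.32. Over the next 134 loci, to LOC_Os04g13460, 27 were tested, of which 10 were higher in C92 and 6 in MH63, with a median of 1.49. Over the last 80 loci, 10 were tested, of which 6 were higher in C92 and 0 in MH63, with a median of 1.95. The bounds of these stretches were set after the values had been seen. The longest run of neighbouring tested members called at 2-fold in the same direction was the 5 from LOC_Os04g12730 to LOC_Os04g12850. In those 5, C92 ranged from 1.59 to 7.10 FPKM and no MH63 library exceeded 0.15. The run from LOC_Os04g14200 through LOC_Os04g14220 to LOC_Os04g14304 had at most 0.01 FPKM in MH63 and 2.88 to 14.9 in C92. A run of 3 from LOC_Os04g12060 to LOC_Os04g12080 was also higher in C92.

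Near the 2-fold limit and at the ends of the block the values were less clear-cut. The limit applies to log2(FPKM + 1), which understates differences of low loci. Mean FPKM of loci just outside it can therefore differ by more than 2-fold. LOC_Os04g11820, just inside the limit, had a log2 difference of -1.08, with means of 1.91 ± 0.370 FPKM for C92 and 5.14 ± 0.405 for MH63 (SD, n = 3). LOC_Os04g12560 was just outside it, at 2.54 ± 0.557 and 0.843 ± 0.329 FPKM, with 0.95, and so was LOC_Os04g13220, at 3.34 ± 0.867 and 6.80 ± 0.465, with -0.86. The last member, LOC_Os04g14304, was at 3.48, 2.88 and 3.26 FPKM in C92 and listed at 0 in all of MH63. Called differences did not stop at these ends. The nearest tested locus to the left, LOC_Os04g10940, was at 5.44 ± 0.844 FPKM in C92 and 48.4 ± 9.16 in MH63, with -2.93. The nearest to the right, LOC_Os04g14410, was at 2.56 ± 0.503 and 5.62 ± 0.633, with -0.90, which is outside the 2-fold limit. Moving the window of 50 tested loci by 10 towards the right gave 25 loci at 2-fold (50%), and by 25 gave 24 (48%). Moving it by 10 or 25 towards the left gave 20 (40%) each time. Windows next to the block on either side, which share no tested locus with it, held 14 (28%) on the left and 15 (30%) on the right.

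The flanks stood between the block and the series. In the left flank 23 of 46 tested loci were called between the parents (50%), 14 of them at 2-fold (30.4%), and in the right flank 34 of 73 (46.6%), 19 of them at 2-fold (26%). The right flank holds a densely numbered run of tested loci from LOC_Os04g16712 to LOC_Os04g16886, most of them lower in C92. Most of the run was not called, and its loci at 2-fold, such as LOC_Os04g16818 at -1.49, were all higher in MH63. The run weighs on the right flank's shares, which were not taken without it. Part of it also lies in the window next to the block on the right. The median absolute log2 difference was 0.90 in the block, 0.43 in the left flank, 0.47 in the right flank and 0.27 over all tested loci. No test of block against flank was made, because the block was picked on this measure. The 4 flank loci named for the size of their difference were all higher in C92. In the left flank LOC_Os04g08800 and LOC_Os04g08360 were at 9.26 ± 0.880 and 9.06 ± 2.36 FPKM in C92 and listed at 0 in every MH63 library. In the right flank LOC_Os04g17479 was at 45.1 ± 5.71 FPKM in C92 and 0.187 ± 0.116 in MH63, and LOC_Os04g15680 at 6.91 ± 2.43 and 0.05 ± 0.0866 (SD, n = 3).

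**Figure D2:**
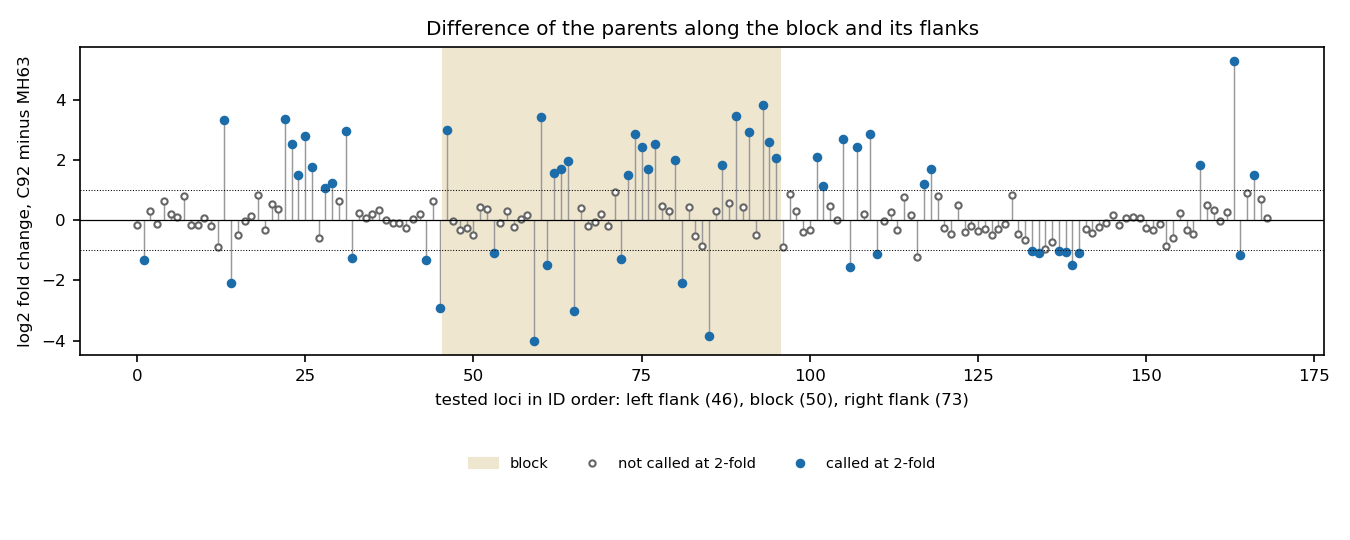
Log2 fold change of C92 over MH63 (vertical axis) at every tested locus of the left flank, the block (shaded) and the right flank in ID order (horizontal axis), with loci called at 2-fold or more as filled points and dotted lines at 2-fold. Filled points make up 48% of the block, 30.4% of the left and 26% of the right flank, and most of those in the block point upward, to C92.

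Some members were expressed in a single parent, each of its 3 libraries reaching 1 FPKM and each of the other parent's 3 staying at or under 0.1. Of the 286 members, 10 met this for C92 (3.50%) and 2 for MH63 (0.699%). Over all loci the shares were 0.923% and 0.430%, and in the flanks 7 and 2 loci were C92-only and 1 and 0 MH63-only, on the left and right. These shares also rest on the measure that chose the block. F1 was above 0 in all 3 libraries at all 12, though below 1 FPKM in each library at LOC_Os04g12070 and LOC_Os04g12639. Its ratio to the expressing parent ran from 0.177 to 0.718 over the C92-only members, with a median of 0.584, and was 0.439 at LOC_Os04g13260 and 0.460 at LOC_Os04g12639 for the MH63-only members. With a copy from each parent, equal activity in parent and hybrid gives 0.5. The C92-only median was 0.571, 0.675 and 0.498 in F1 libraries 1, 2 and 3. It was 0.551 over the 515 C92-only loci of the series, and the block is not distinguished from them here.

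Single C92-only members differed from each other in the hybrid. LOC_Os04g12744 kept most of its level, with 7.10, 5.62 and 6.12 FPKM in C92, 0 in all of MH63, and 4.61, 4.71 and 4.21 in F1, a ratio of 0.718. LOC_Os04g12070 was at the other end, with 1.90, 2.01 and 2.94 FPKM in C92, 0 in all of MH63, and 0.14, 0.82 and 0.25 in F1, a ratio of 0.177 that ran from 0.0613 to 0.359 by library. Its F1 libraries were all below the C92 libraries. The MH63-only LOC_Os04g12639 was low throughout, at 1.83, 1.5 and 1.13 FPKM in MH63, 0.67, 0.61 and 0.77 in F1 and 0 in all of C92. Among members too low to be tested, 9 were above 0 in all 3 C92 libraries and at 0 in all of MH63, and F1 was above 0 in all 3 libraries at 5 of them and at 0 in all 3 at 1. In the opposite sense there were 5, with F1 above 0 in all 3 libraries at 1 and at 0 in all 3 at 1. With the tested members included, the numbers were 15 in the first sense, 11 of them above 0 throughout F1, and 7 in the other, 3 of them above 0 throughout F1. Over all loci, 1.94% were of the first kind and 1.25% of the other. Of those, F1 was above 0 throughout at 65.7% and 52.4% and at 0 throughout at 5.09% and 8.63%. Of the 155 members above 0 but untested, 69 had the higher mean in C92 and 58 in MH63. Their mean level was 0.0144 FPKM at the median and 0.86 at most, so a difference was not detectable for most at this depth.

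F1 was set against each parent in the same fit over all tested loci. These comparisons share the parents' libraries with the one that chose the block and share the F1 libraries with each other, so member counts are given as descriptions. Against C92, 24 of 50 members were called, 9 higher and 15 lower in F1, with 24.3% of all tested loci called, 10.6% higher and 13.7% lower. Against MH63, 26 were called, 19 higher and 7 lower, with 18.9% of all called, 11.5% higher and 7.38% lower. The left flank had 21 of 46 called against C92 and 17 against MH63, and the right flank 12 of 73 and 24. Of the 24 members at 2-fold between the parents, 17 were called from both parents and lay between them, 11 of the 17 members higher in C92 and 6 of the 7 higher in MH63. Over the series' loci at 2-fold the share was 51.4%, at 50.1% of those higher in C92 and 53.4% of those higher in MH63. At 18 of the 24, no F1 library overlapped a library of either parent; at 5, F1 overlapped the higher parent, and at 1 the lower. F1 lay between the parents without overlap at 62.1% of the series' loci at 2-fold. At LOC_Os04g14140, for example, F1 minus C92 was -0.77 in log2 terms (SE 0.09), and at LOC_Os04g11970 F1 minus C92 was 2.32 and F1 minus MH63 -1.69 (SE 0.22 each). No p is given for these, as the parental values that picked the loci enter them.

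The place of F1 between the parents was taken on mean FPKM as the distance of F1 from MH63 divided by the distance of C92 from MH63, so that 0 is the level of MH63, 1 that of C92 and 0.5 the midpoint. Over the 24 members its median was 0.584, with quartiles of 0.520 and 0.698, and 21 of 24 lay above 0.5, on the C92 side, as did 62.3% of the series' loci at 2-fold. This held for 14 of the 17 members higher in C92 (median 0.583) and all 7 higher in MH63 (median 0.629). The side depended on the library: the median was 0.636 and 0.624 in F1 libraries 1 and 2 and 0.5001 in library 3. The series as a whole did likewise, at 0.584, 0.607 and 0.479 in the same libraries, and 0.563 overall for its 2331 loci at 2-fold. Medians were 0.476 over 14 loci of the left flank and 0.757 over 19 of the right. Those 19 include the 2-fold loci of the run from LOC_Os04g16712 to LOC_Os04g16886. The 3 members below 0.5 were the neighbours LOC_Os04g12060, LOC_Os04g12070 and LOC_Os04g12080, at 0.447, 0.177 and 0.355. In F1 libraries 1 and 3 all 3 lay under 0.4, and in library 2 they lay at 0.655, 0.359 and 0.432. At the top were LOC_Os04g12980, at 0.996, and LOC_Os04g13140, at 0.948, where F1 stood at the level of C92 although C92 was the higher parent at the first and the lower at the other.

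**Figure D3:**
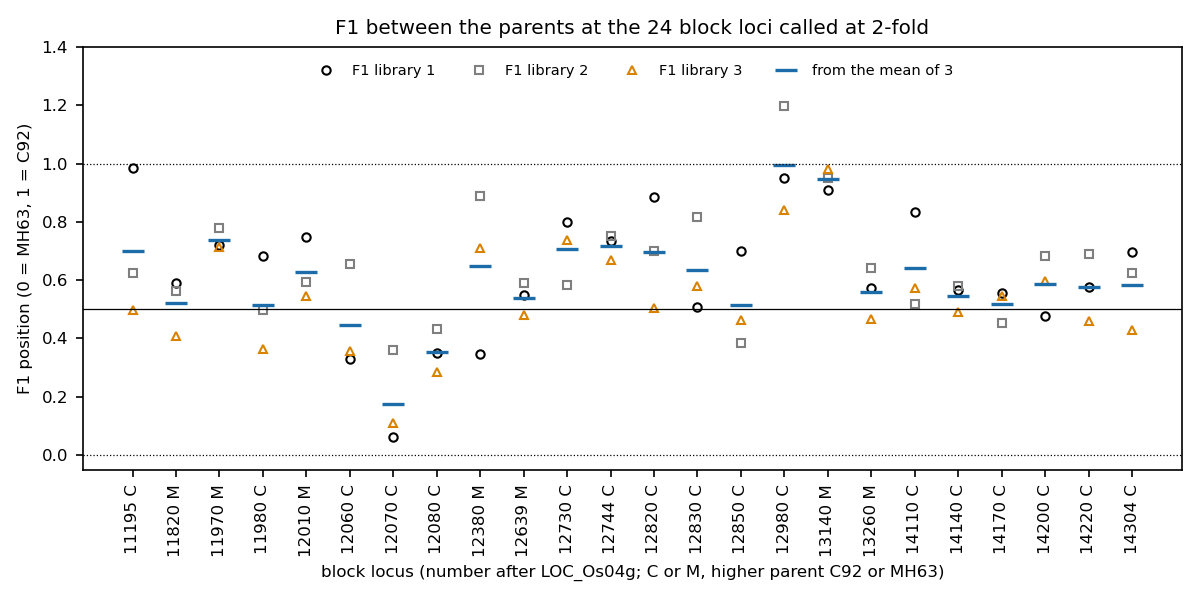
Position of F1 between the parents (vertical axis; 0 is MH63, 1 is C92, solid line at 0.5) at the 24 block members called at 2-fold or more between the parents, in ID order, for each F1 library (open symbols) and from the mean of 3 libraries (bars). Most bars lie between 0.5 and 0.75, LOC_Os04g12060 to LOC_Os04g12080 lie under 0.5, and LOC_Os04g12980 and LOC_Os04g13140 lie near 1.

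Departure from the midpoint was tested against the mid-parent, which averages the fitted FPKM of C92 and MH63 before taking the log2. The parental libraries that picked the block therefore enter this test too. At members that differed at 2-fold between the parents, adjusted p is given below as a description only. LOC_Os04g12744, LOC_Os04g12980, LOC_Os04g13140 and LOC_Os04g11970 are among these. Of the 50 tested members 6 were called (12%), 3 higher and 3 lower in F1. Among the higher was LOC_Os04g12960, which passed the filter through F1 and a single C92 library. Over all tested loci 8.94% were called, 3.36% higher and 5.58% lower. The block's share was thus near the background, and its count was unsteady: it ran from 1 (without F1 library 3) to 8 with single libraries left out, was 3 without C92 library 2 or 3 and 2 without F1 libraries 1 and 2, and was 16, 14 of them higher, with the parents averaged on the log2 scale, which called 12.1% of all tested loci. At an unadjusted p below 0.05 there were 12 of the 50 members, beside 5897 of all 21447 tested loci. The flanks had 20 of 46 on the left and 17 of 73 on the right. The left flank had 10 of 46 called, 1 higher and 9 lower, and the right flank 6 of 73, 1 higher and 5 lower. The median log2 fold change over the tested members was 0.01, as it was over all tested loci. By this measure 21 of the 24 members that differed at 2-fold between the parents were not called away from their midpoint, nor were 85.1% of such loci in the series, which does not show that they lie on it.

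Of the 3 members higher than the mid-parent, LOC_Os04g12960 was low in both parents. It had 1.01, 0.39 and 0.69 FPKM in C92, 0.10, 0.37 and 0.66 in MH63, and 1.59, 2.97 and 2.68 in F1, and every F1 library was above every parental one. It passed the filter through F1 and a single C92 library, so its log2 fold changes of 1.15 over the mid-parent (SE 0.19), 1.00 over C92 and 1.31 over MH63 are given as a description. It was the 1 member called above both parents, a class of 1.32% of all tested loci, and 0 members were called below both, a class of 1.36%. Its mid-parent call was lost without F1 library 3. LOC_Os04g12980 had 10.4, 10.3 and 10.5 FPKM in C92, 1.63, 2.17 and 1.88 in MH63, and 9.98, 12.1 and 9.03 in F1. Its F1 libraries spread around those of C92 and far above those of MH63, and the log2 fold change against the mid-parent was 0.66 (SE 0.11, limma adjusted p = 0.0116). This call held with each single library left out, and was lost with F1 libraries 1 and 2 left out together (adjusted p = 0.096). LOC_Os04g12744, described above, was higher by 0.42 (SE 0.10, adjusted p = 0.036), a call lost when any one of C92 libraries 2 and 3, MH63 libraries 1 and 2 or the 3 F1 libraries was left out (adjusted p = 0.0553 to 0.097), with the replicate number as a block (0.0642), with no filter (0.0991) and with a pseudocount of 0.1 (0.0794).

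Of the 3 members lower than the mid-parent, LOC_Os04g14150 was the most abundant. It had 66.8, 80.0 and 81.0 FPKM in C92, 55.6, 53.7 and 58.7 in MH63, and 52.5, 41.0 and 38.9 in F1, so that every F1 library was below every parental one. The log2 fold change from the mid-parent was -0.58 (SE 0.11, limma adjusted p = 0.0164), with -0.78 from C92 and -0.35 from MH63, of which the second was not called. The mid-parent call was lost without F1 library 2 (adjusted p = 0.0542) or 3 (0.0678). LOC_Os04g13190 had 9.73, 14.1 and 12.4 FPKM in C92, 9.42, 7.84 and 8.66 in MH63, and 7.51, 5.64 and 4.71 in F1, again with F1 below both parents in every library. Its log2 fold change from the mid-parent was -0.72 (SE 0.15, adjusted p = 0.021), a call lost with no filter (0.0553) and without C92 library 2 (0.0502) or 3 (0.0505) or F1 library 2 (0.0625) or 3 (0.0844). LOC_Os04g13140, at the level of C92 in F1, had -1.13 (SE 0.27, adjusted p = 0.0347). That call was lost with no filter (0.091), with a log-scale mid-parent (0.0733), and without C92 library 2 or 3, MH63 library 2 or any F1 library (0.0541 to 0.12). LOC_Os04g11970 fell just short, at -0.77 (SE 0.22, adjusted p = 0.0575), and was called without C92 library 1 (0.0146).

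**Figure D4:**
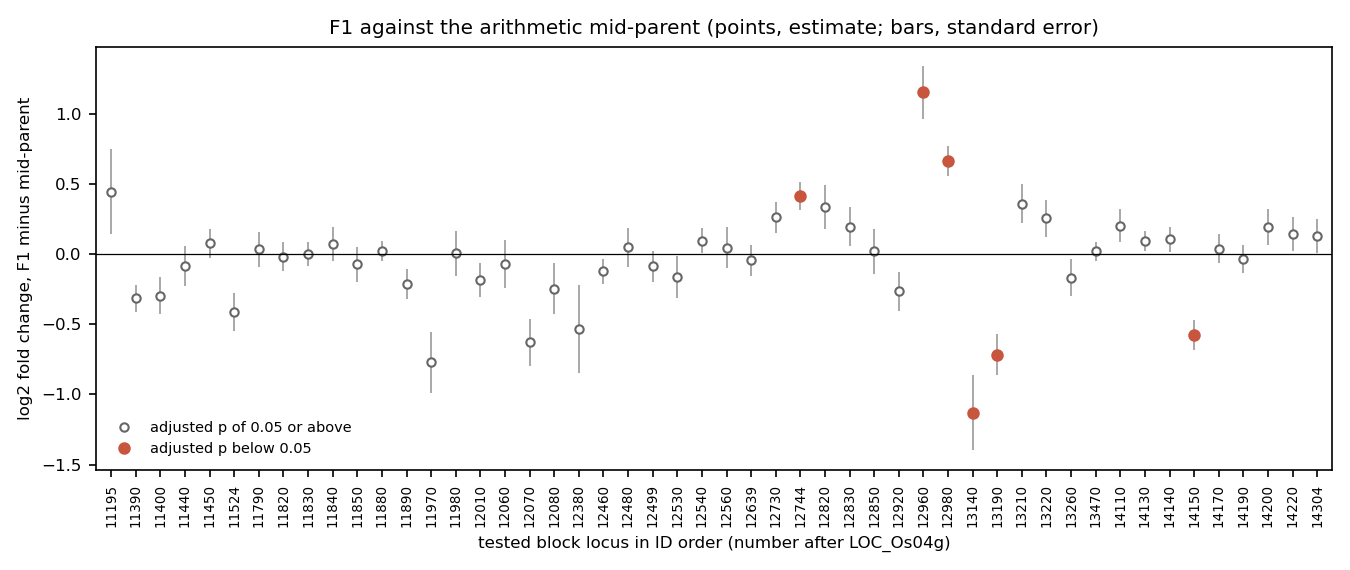
Log2 fold change of F1 from the arithmetic mid-parent (vertical axis) at the 50 tested members in ID order (horizontal axis), with standard errors as bars and members at an adjusted p below 0.05 filled. The 6 filled points run from LOC_Os04g12744 to LOC_Os04g14150, 3 above and 3 below 0, and 0 of the 13 members up to LOC_Os04g11890 are filled.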

How the data were processed

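The authors deposited FPKM, 1 value per locus and library with 2 decimals, for 9 libraries; reads were aligned with HISAT2 2.0.5, per the submitters' processing notes. The genome build, annotation, counting program and use of strand are, in the sources used here, not given, so values of overlapping or near-identical loci are uncertain. FPKM are not counts, so log2(FPKM + 1) was fitted with limma 3.58.1 in R 4.3.3, all 9 libraries in 1 fit with 3 group means and a variance trend, over the 21447 loci that reached 1 FPKM in 3 or more libraries. Tests were two-sided, with Benjamini-Hochberg adjustment over all tested loci and calls below 0.05; fold changes on this scale understate those of low loci. The mid-parent error came from the delta method. The fit was run on simulated data in which only F1 was changed. The parents were alike there, so loci with differing parents were not covered. Relative depth is the most frequent ratio of low values. No 2 libraries were identical. Members and rules were chosen with earlier results of these data known. Named loci follow fixed rules: largest parental differences, mid-parent calls, the top single-parent, abundant and uncalled members, the ends, those nearest the 2-fold limit, and flank extremes. Other members are named for their place or their F1 position, after their values were seen. Same-numbered libraries do not pair: their deviations from group means correlated at -0.432 to 0.343. Alternatives covered pseudocount, filter, scaling, the block, libraries, mid-parent, limits and flank width.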

Additional observations from a re-analysis of the deposited data

How the results depend on the processing

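No called member changed direction between the parents, against a parent or against the mid-parent in the settings run; 27 of 34 member calls between the parents, 15 of 24 against C92, 22 of 26 against MH63 and 1 of 6 against the mid-parent were kept in all 9 fits that leave out 1 library. With single libraries left out, calls ranged from 5239 to 7415 over all loci and 28 to 34 in the block between the parents (23 to 24 at 2-fold; 16 to 24 in the left flank, 28 to 37 in the right), 3024 to 5500 and 16 to 24 against C92, 2720 to 3986 and 22 to 26 against MH63, and 488 to 1795 and 1 to 8 against the mid-parent. The lowest block count against the mid-parent, 1, came without F1 library 3; it was 3 without C92 library 2 and 3 without C92 library 3. At a mean FPKM of at least 5, which tests fewer loci (25 members), calls were 4538 over all loci, 15 in the block, 10 in the block at 2-fold, 9 in the left and 20 in the right flank between the parents, 3359 and 11 against C92, and 2289 and 11 against MH63. With no filter, 37 loci of the left flank were called between the parents and 912 of all loci against the mid-parent. Without F1 libraries 1 and 2, 1968 loci were called against MH63, and 1110 loci and 2 members against the mid-parent; F1 is then a lone library assumed to vary like the others. With the mid-parent averaged on the log2 scale, 16 members were called, 14 of them higher, since equal copies then lie above it wherever the parents differ; there LOC_Os04g11970 turned to 0.32 (adjusted p = 0.318). With the replicate number as a block, which does not pair these libraries (7 of 18 best correlations fell on the same number), 32, 22, 26 and 5 members were called in the 4 comparisons. Median position was 0.548 to 0.625 with single libraries left out and 0.5001 in F1 library 3 alone, which is also the value without F1 libraries 1 and 2. C92-only members numbered 6 with MH63 at 0 and 10 to 11 without single libraries, and MH63-only members 2 to 3; their median F1 ratios were 0.541 to 0.646 and 0.410 to 0.488, with 0.675 in F1 library 2 alone for the first and 0.525 in library 3 alone for the other. Tested loci made up 19.8% of both flanks, 14.3% within 150 loci of the block, 15.3% of the left and 24.3% of the right flank. The causes of these shifts were not tested, beyond those that the settings build in. Depth, known only in relative terms, limits what can be said of members below 1 FPKM.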
